A study of Mus musculus with 27 samples.

Results

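The 32 genes described here encode the enzymes and transporters of glycolysis and genes commonly induced by low oxygen. They were taken as a list of gene symbols, matched by Ensembl identifier, and make up 32 of the 30735 genes to which the deposited transcripts were summed. They were divided by general knowledge into 13 MYC-like members, the genes of the glycolytic core and its importers, 14 HIF-like members, isozymes and effectors best known from hypoxia, and 5 other isozymes. The members and the other lists used below were chosen with earlier results of these data known. Glycolysis splits glucose into pyruvate in the cytosol, and pyruvate is then either reduced to lactate and exported or oxidised in mitochondria. The transcription factor MYC and the hypoxia-inducible factors (HIF) both bind promoters of this pathway, so that many members are known targets of both and the classes are not exclusive. B cells that leave rest to divide are known to raise glucose uptake and lactate output.

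RNA was sequenced from 27 samples of B cells purified by B220, a surface antigen of B cells. Resting samples were untreated splenic B cells of healthy mice, 1 each of the genotypes wt, cr, co and hv, and LPS samples were the same 4 genotypes treated for 2 days with lipopolysaccharide, a bacterial product that drives B cells to divide. The other 19 samples were B-cell lymphomas, 12 from lung, 4 from mesenteric and 3 from peripheral lymph nodes, 7 of line hv, 7 of cr, 4 of co, and 1 from lung whose title and description disagree on the line. The hv, cr and co mice carry c-myc Igh transgenes, so that 3 of 4 resting and 3 of 4 LPS samples carry them as well and only the wt samples do not; the labels do not spell out the 3 names, nor the ages of the mice. Whether the samples came from separate mice is not stated, and p-values then measure only the spread between these samples. Below, values of the 4 resting or 4 LPS samples are in the order wt, cr, co and hv, and lymphomas are numbered 1 to 19 in the order of the labels.

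Levels are given as TPM, the usual share of each library corrected for transcript length, so that fewer cells of a type and less RNA per cell cannot be told apart. Depth, read from the spacing of the lowest TPM values, was 11531400 to 32032600 read pairs per sample. Summed B-cell markers reached 2323 to 4304 TPM in resting, 927 to 1826 TPM in LPS and 1142 to 3425 TPM in lymphoma samples. Haemoglobin genes took 1.15 to 10.99% of the resting libraries and at most 0.220% of any other. The 8 erythroid markers summed to 11744 to 112448 TPM in resting, 175 to 2218 TPM in LPS and 16.4 to 1132 TPM in lymphoma samples, and none was at 0 throughout a group. The 8 macrophage markers likewise summed to 129.7 to 894 TPM, 1.58 to 11.1 TPM and 4.60 to 73.4 TPM. Their part in the results was not tested. The predicted gene Gm10800 took 18.6% of the cr LPS, 3.65% of the wt resting, 3.08% of lymphoma 16 and 2.70% of the hv LPS library.

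Pyruvate kinase M is read from alternative exons, and the deposited table separates the transcripts that use them. Both exons are shown because the balance between them is reported below. They lie in Pkm (ENSMUSG00000032294) on chromosome 9 of GRCm38, plus strand, are wholly coding and have 167 bases each, and capitals mark the 64 positions at which they differ. The upstream exon gives the form usually called PKM1 and the downstream exon the form called PKM2.
Pkm upstream exon, chr9:59675029-59675195: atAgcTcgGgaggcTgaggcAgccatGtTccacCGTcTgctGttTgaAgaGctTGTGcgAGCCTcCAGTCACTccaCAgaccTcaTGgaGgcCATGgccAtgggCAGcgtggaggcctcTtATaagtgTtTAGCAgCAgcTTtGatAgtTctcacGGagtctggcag
Pkm downstream exon, chr9:59675568-59675734: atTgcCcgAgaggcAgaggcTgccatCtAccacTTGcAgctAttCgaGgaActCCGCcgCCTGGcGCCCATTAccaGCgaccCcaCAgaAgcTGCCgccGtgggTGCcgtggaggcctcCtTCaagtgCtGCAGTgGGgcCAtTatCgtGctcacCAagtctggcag

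Promoter windows of 250 bases before the RefSeq start (GRCm38.p6) were found for 31 of 32 members, all but Slc2a3. The letters ACGTG, the core of the best known HIF binding site, were searched on both strands. They stood in 16 of 31 member windows (51.6%) and in 16.6% of the 32851 windows of the table used here. By class these were 8 of 13 MYC-like (61.5%), 7 of 13 HIF-like (53.8%) and 1 of 5 other isozyme windows (20%). The order of the classes depended on the letters searched. With GCGTG accepted as well, 26 of 31 member windows (83.9%) matched, against 38.6% of all windows. These were 10 of 13 MYC-like (76.9%), 11 of 13 HIF-like (84.6%) and 5 of 5 other isozyme windows. The E-box CACGTG, the best known MYC site, contains ACGTG on both strands, so the searches overlap. It stood in 3 of 31 member windows (9.68%), those of Ldha, Slc16a1 and Bnip3, against 6.02% of those windows. ACGTG outside CACGTG stood in 14 of 31 (45.2%) against 11.4%. A match is a description of the letters only. The 5 windows below belong to genes whose levels are followed in detail: the 3 with CACGTG, then Pgk1 and Egln3. Capitals mark CACGT or ACGTG, each window ends at the base before the RefSeq start, and it is written on the strand of the gene.
Ldha, chr7:46845554-46845803, plus strand: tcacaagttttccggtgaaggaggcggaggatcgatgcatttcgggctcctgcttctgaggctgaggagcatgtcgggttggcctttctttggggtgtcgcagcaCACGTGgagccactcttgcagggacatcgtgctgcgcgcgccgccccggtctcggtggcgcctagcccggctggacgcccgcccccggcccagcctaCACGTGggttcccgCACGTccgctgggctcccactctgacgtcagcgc
Slc16a1, chr3:104638414-104638663, plus strand: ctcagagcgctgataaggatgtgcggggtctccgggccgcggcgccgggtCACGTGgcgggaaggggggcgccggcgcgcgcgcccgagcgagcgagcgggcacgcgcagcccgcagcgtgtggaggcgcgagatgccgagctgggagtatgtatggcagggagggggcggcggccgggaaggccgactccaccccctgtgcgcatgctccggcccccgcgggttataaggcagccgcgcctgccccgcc
Bnip3, chr7:138909507-138909756, minus strand: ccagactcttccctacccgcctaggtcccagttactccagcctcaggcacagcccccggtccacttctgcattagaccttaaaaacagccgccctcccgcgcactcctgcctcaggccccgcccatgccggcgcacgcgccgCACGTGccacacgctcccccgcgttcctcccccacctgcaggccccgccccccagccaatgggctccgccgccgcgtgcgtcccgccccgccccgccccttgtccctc
Pgk1, chrX:106186850-106187099, plus strand: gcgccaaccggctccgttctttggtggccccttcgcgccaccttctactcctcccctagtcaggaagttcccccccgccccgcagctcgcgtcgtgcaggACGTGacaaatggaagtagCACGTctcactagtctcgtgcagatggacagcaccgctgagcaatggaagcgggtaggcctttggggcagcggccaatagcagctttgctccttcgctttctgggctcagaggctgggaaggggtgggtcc
Egln3, chr12:54203875-54204124, minus strand: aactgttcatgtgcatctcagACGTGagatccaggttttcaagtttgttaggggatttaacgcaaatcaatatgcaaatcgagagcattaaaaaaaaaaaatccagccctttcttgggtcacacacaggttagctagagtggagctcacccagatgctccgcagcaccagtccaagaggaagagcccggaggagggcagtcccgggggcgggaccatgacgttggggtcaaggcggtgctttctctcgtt

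After 2 days of LPS, 21 of 29 members were higher than in resting cells and 1, Pfkfb4, was lower, by limma on log2(TPM + 1) at an adjusted p below 0.05. Ak4 and Egln3 were also higher, but they met the filter on low values (1 TPM in at least 4 samples) through the LPS samples alone, so that their values are given as a description; with them the count was 23 of 31. Over all 11999 genes, 25.2% were called higher and 33% lower (58.2% in either direction). The median difference of the 29 members was 1.41 on the log2 scale, against -0.16 over all genes. Of the 13 MYC-like members 11 were higher (median 2.86), of the 12 HIF-like members other than Ak4 and Egln3, 7 were higher and 1 lower (median 1.25), and of the 4 other isozymes tested 3 were higher (median 1.34). In 23 members, Ak4 and Egln3 included, every LPS sample lay above every resting sample, which held for 22.8% of all genes, and in 1 member every LPS sample lay below (29.5% of all genes). The LPS libraries also held less of the erythroid and macrophage markers, 8 of 8 and 7 of 8 being lower, and 6 of 7 B-cell markers were lower. So were 4 of 5 dendritic, 3 of 4 platelet, 2 of 4 T-cell, 2 of 2 neutrophil and 2 of 2 NK-cell markers tested, while 1 of 2 endothelial markers was higher and 1 lower. The part of such cells in these comparisons was not tested. Another scaling, by median of ratios, moved the all-gene median from -0.16 to -0.03, and leaving 3 dominant gene groups (Gm20594, Gm10800 and haemoglobin) out of the total moved it to -0.30. Without the 3 of these 8 libraries above 1% Gm10800, 22 members were higher, beside 3071 of 10885 genes.

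Fewer members were called in the lymphomas. Against resting cells 8 of 30 members tested were higher (14.5% of 13239 genes) and 2 were lower (17.4%; 31.9% in either direction). 7 of the 8 were MYC-like: Tpi1, Gapdh, Pgk1, Pgam1, Eno1, Pkm and Ldha. All 19 lymphomas lay above all 4 resting samples in each of these 7, a separation found in 4% of all genes, and no member lay wholly below (4.92% of all genes). Eno2 and Ak4, neither of them called, met the filter through the lymphomas alone. Without these 2 the median difference was 1.42 for the MYC-like, 0.14 for 11 HIF-like and 0.64 for all 28 members, against -0.06 over all genes. The 7 stayed called under each of the alternatives run, while Pdk1, Hk1 and Pfkfb4 did not. Within the 9 lymphomas whose sample names are written with joined parts, a possible batch, 10 members were higher than in resting cells, and within the 10 with separated names 7 were. Over all genes, 2462 of 12619 were higher with joined and 1234 of 12653 with separated names. All joined-name lymphomas were from lung and all node lymphomas had separated names, so name style and site cannot be fully told apart. Without the libraries above 1% Gm10800, 7 members were higher and 0 lower, beside 1397 and 1349 of 13011 genes. Rescaling without the dominant genes changed the share of higher among all calls from 45.4% to 31.9%. Markers of erythroid cells (8 of 8), macrophages (7 of 8), neutrophils (5 of 5 tested), platelets (4 of 4 tested), dendritic cells (4 of 5) and NK cells (3 of 4) were lower in the lymphomas, as were 2 of 4 T-cell, 1 of 2 endothelial and 2 of 7 B-cell markers, and 1 of 4 fibroblast markers was higher.

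The LPS samples of the first comparison were also set against the lymphomas. No member was higher in the lymphomas (5.27% of 12880 genes) and 18 of 31 were lower (8.56%; 13.8% in either direction). Egln3, 1 of the 18, met the filter through the LPS samples alone, and Eno2, not called, through the lymphomas alone; without these 2 the count was 17 of 29. 11 of the 13 MYC-like members and 5 of the 12 remaining HIF-like members were lower. 11 members, Egln3 included, lay below every LPS sample in every lymphoma, which held for 2.05% of all genes, and none lay above (1.29%). Without the libraries above 1% Gm10800, 16 members were lower, counted over all members tested, beside 340 of 12700 genes. The median difference was -1.29 for these 29 members and 0.03 for all genes. Of the cell-type lists, macrophage (5 of 8) and B-cell markers (2 of 7) were higher and erythroid (6 of 7 tested) and dendritic markers (1 of 3 tested) lower than after LPS. The plot of differences shows all members.

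**Figure D1:**
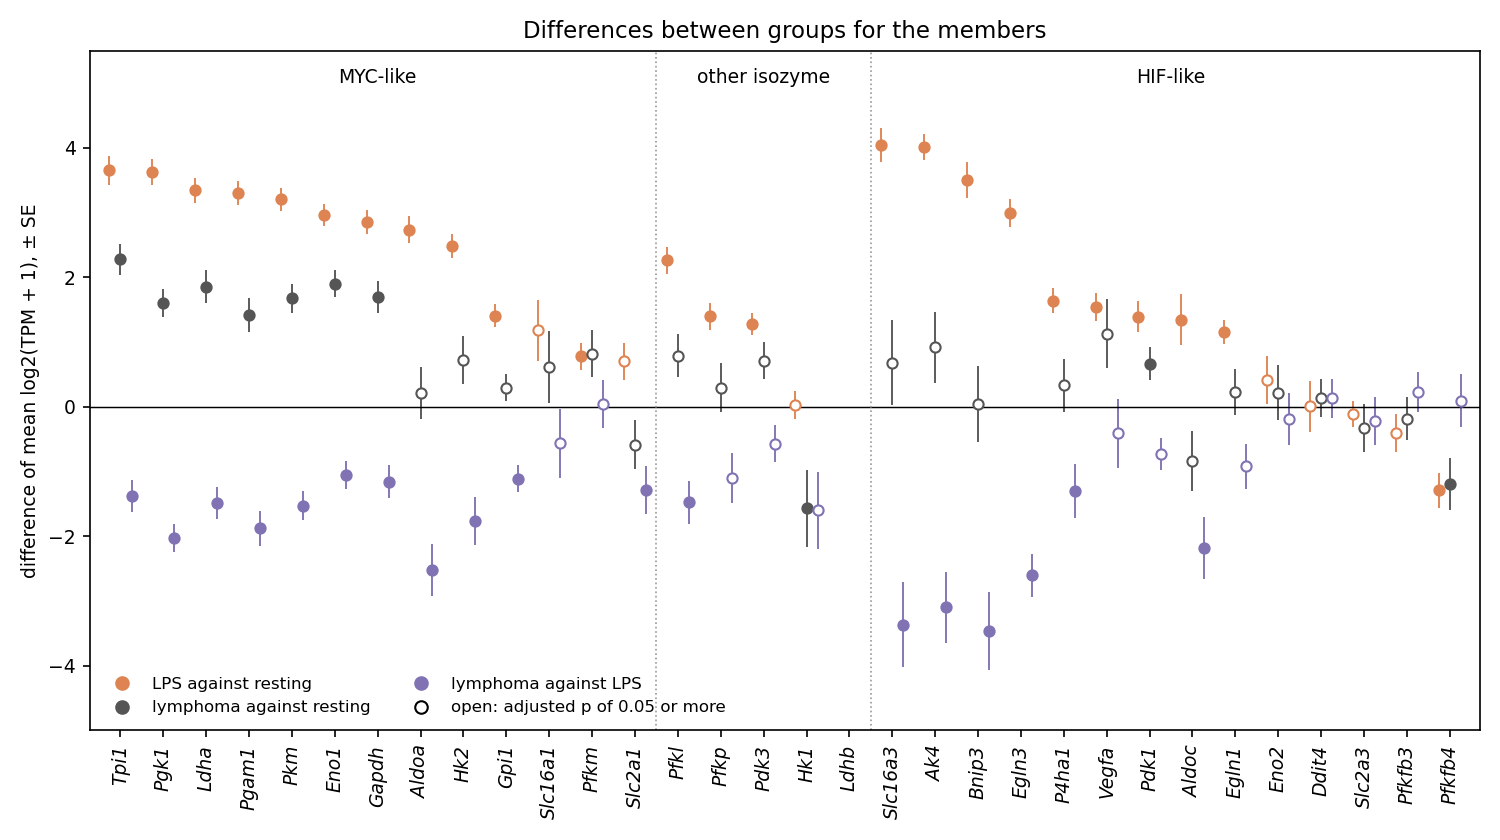
Difference of mean log2(TPM + 1) between groups (y axis) for each member, ordered by class and by its LPS difference; lines are standard errors, filled points passed an adjusted p of 0.05 by limma. The orange points of Tpi1 to Gpi1 stand above 1, the grey points of Tpi1 to Gapdh between 1.42 and 2.28, Ldhb has no point because it was not tested, and Ak4 and Egln3 met the filter through the LPS samples alone.

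Neither glucose transporter was called between LPS and rest. Slc2a1 (GLUT1, the basal glucose transporter) stood at 42.4, 18.2, 22.99 and 18.5 TPM in resting cells, at 54.95, 27.8, 44.6 and 36.4 TPM after LPS and at 6.18 to 48.8 TPM (median 13.1) in the lymphomas. The wt resting sample was the highest resting one and lay within the LPS range, and 12 of 19 lymphomas were below every resting sample. The LPS difference was 0.70 ± 0.29 (SE, limma adjusted p = 0.0519), which did not pass. It passed without the wt resting sample (0.97, adjusted p = 0.000926), without the cr LPS sample (0.87, adjusted p = 0.0307), without all 3 libraries above 1% Gm10800 (1.28, adjusted p = 0.000317) and under median-of-ratios scaling (0.84, adjusted p = 0.00870), all by limma. Lymphomas were lower than LPS-treated cells, with a difference of -1.29 ± 0.37 (SE, limma adjusted p = 0.0212). That call was lost without the wt, co or hv LPS sample (adjusted p = 0.0952, 0.0864 and 0.0637), without libraries above 1% Gm10800 (0.104), among node lymphomas only (0.0602) and among separated names only (0.0828). Slc2a3 (GLUT3, a high-affinity transporter) ranged from 17.7 to 28.7 TPM at rest, 15.7 to 25.8 TPM after LPS and 4.69 to 45.7 TPM (median 17.6) in the lymphomas, and passed in none of the 3 comparisons.

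Of the hexokinases, which trap glucose in the cell, Hk2 rose after LPS and Hk1 was lower in the lymphomas. Hk2, the inducible hexokinase, stood at 5.43, 6.28, 6.04 and 6.07 TPM in resting cells, at 41.4, 26.96, 45.8 and 40.3 TPM after LPS and at 2.74 to 29.6 TPM (median 11.1) in the lymphomas. All 4 LPS samples were above all resting ones, and 15 of 19 lymphomas were above the resting range but only 1, lymphoma 5, reached the lowest LPS sample. Its mean was 6.48-fold higher after LPS, a difference of 2.48 ± 0.19 (SE, limma adjusted p = 8.94e-07). In the lymphomas the difference from rest was 0.72 ± 0.37 (SE, limma adjusted p = 0.140) and did not pass. Hk1, the constitutive hexokinase, stood at 17.9, 20.47, 22.3 and 27.6 TPM in resting cells, at 33.2, 16.3, 22.8 and 19.8 TPM after LPS and at 1.02 to 27.5 TPM (median 5.98) in the lymphomas. Resting and LPS samples overlapped, whereas 15 of 19 lymphomas lay below every resting sample and 4 lay within their range. The lymphoma difference was -1.57 ± 0.59 (SE, limma adjusted p = 0.0442). It did not pass without the wt, cr, co or hv resting sample (adjusted p = 0.0862, 0.0917, 0.0977 and 0.119), in lung lymphomas only (0.117), among separated names only (0.0597), without libraries above 1% Gm10800 (0.101), with a pseudocount of 0.1 (0.0518) or without a filter (0.0687).

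Between glucose 6-phosphate and triose phosphate, Gpi1, Aldoa and Tpi1 rose with LPS, and Tpi1 was also higher in the lymphomas than at rest. Gpi1, the isomerase of the second step, stood at 163, 173, 164 and 128 TPM in resting cells, at 499, 363, 439.7 and 377 TPM after LPS and at 99.4 to 279 TPM (median 212) in the lymphomas. Aldoa, the main aldolase, stood at 218, 183, 193 and 141 TPM in resting cells, at 1539.8, 989, 1371 and 1040.5 TPM after LPS and at 72.9 to 541 TPM (median 194) in the lymphomas. In both genes every LPS sample was above every resting sample and every lymphoma, and lymphomas and resting cells overlapped. The LPS differences were 1.41 ± 0.18 (SE, limma adjusted p = 3.95e-05) for Gpi1 and 2.74 ± 0.21 (SE, limma adjusted p = 9.6e-07) for Aldoa, and lymphomas differed from LPS-treated cells by -1.11 ± 0.21 (SE, limma adjusted p = 0.000749) and -2.52 ± 0.40 (SE, limma adjusted p = 0.000118). Mean Aldoa in the lymphomas was 19.97% of its mean after LPS. Tpi1, the triose phosphate isomerase, stood at 39.3, 69.1, 62.4 and 58.9 TPM in resting cells, at 932, 570.3, 816 and 615 TPM after LPS and at 164 to 442 TPM (median 264) in the lymphomas. Its 3 groups did not overlap: the lowest lymphoma was 164 TPM against 69.1 TPM in the highest resting sample, and the highest was 442 TPM against 570.3 TPM in the lowest LPS sample. Tpi1 had the largest difference from rest of all MYC-like members, 3.65 ± 0.22 (SE, limma adjusted p = 2.54e-07) after LPS and 2.28 ± 0.24 (SE, limma adjusted p = 1.06e-07) in the lymphomas.

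Phosphofructokinase, the committing step, has 3 subunit genes, and all of them rose with LPS. Pfkl, the liver-type subunit, stood at 23.1, 22.03, 22.2 and 16.99 TPM in resting cells, at 144, 75.1, 112 and 98.2 TPM after LPS and at 13.8 to 89.03 TPM (median 40.4) in the lymphomas. LPS and resting samples were apart, 17 of 19 lymphomas were above the resting range, and 1, lymphoma 18, reached the LPS range. The differences were 2.26 ± 0.21 (SE, limma adjusted p = 4.16e-06) after LPS and 0.79 ± 0.33 (SE, limma adjusted p = 0.0684) in lymphomas, the second passing under median-of-ratios scaling (0.90, adjusted p = 0.0145) and in node lymphomas only (0.75, adjusted p = 0.0430). Pfkp, the platelet-type subunit and the most abundant of the 3 per length, had means of 54.1 ± 11.2 TPM (SD, n = 4) at rest, 145 ± 33.1 TPM after LPS and 75.7 ± 42.7 TPM (n = 19) in lymphomas, and rose with LPS by 1.40 ± 0.21 (SE, limma adjusted p = 0.000127). Pfkm, the muscle-type subunit, was low throughout, at 1.64, 2.68, 3.03 and 2.95 TPM in resting cells, at 4.55, 4.20, 6.16 and 5.48 TPM after LPS and at 0.949 to 9.94 TPM (median 5.91) in the lymphomas. It rose with LPS by 0.78 ± 0.21 (SE, limma adjusted p = 0.00633), a call lost when the 3 groups were fitted together (adjusted p = 0.185). Aldoc, the brain-type aldolase of the HIF-like class, stood at 3.86, 6.47, 8.03 and 6.21 TPM in resting cells, at 35.5, 9.90, 21.5 and 9.96 TPM after LPS and at 0.710 to 12.5 TPM (median 2.22) in the lymphomas. The wt and co LPS samples were high, the cr and hv ones just above the resting range, and 14 of 19 lymphomas below it. Its LPS difference of 1.34 ± 0.39 (SE, limma adjusted p = 0.0153) did not pass without the wt resting sample (adjusted p = 0.0689) or with all 3 groups in 1 fit (0.0775), and lymphomas were -2.18 ± 0.48 (SE, limma adjusted p = 0.00314) relative to LPS.

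**Figure D2:**
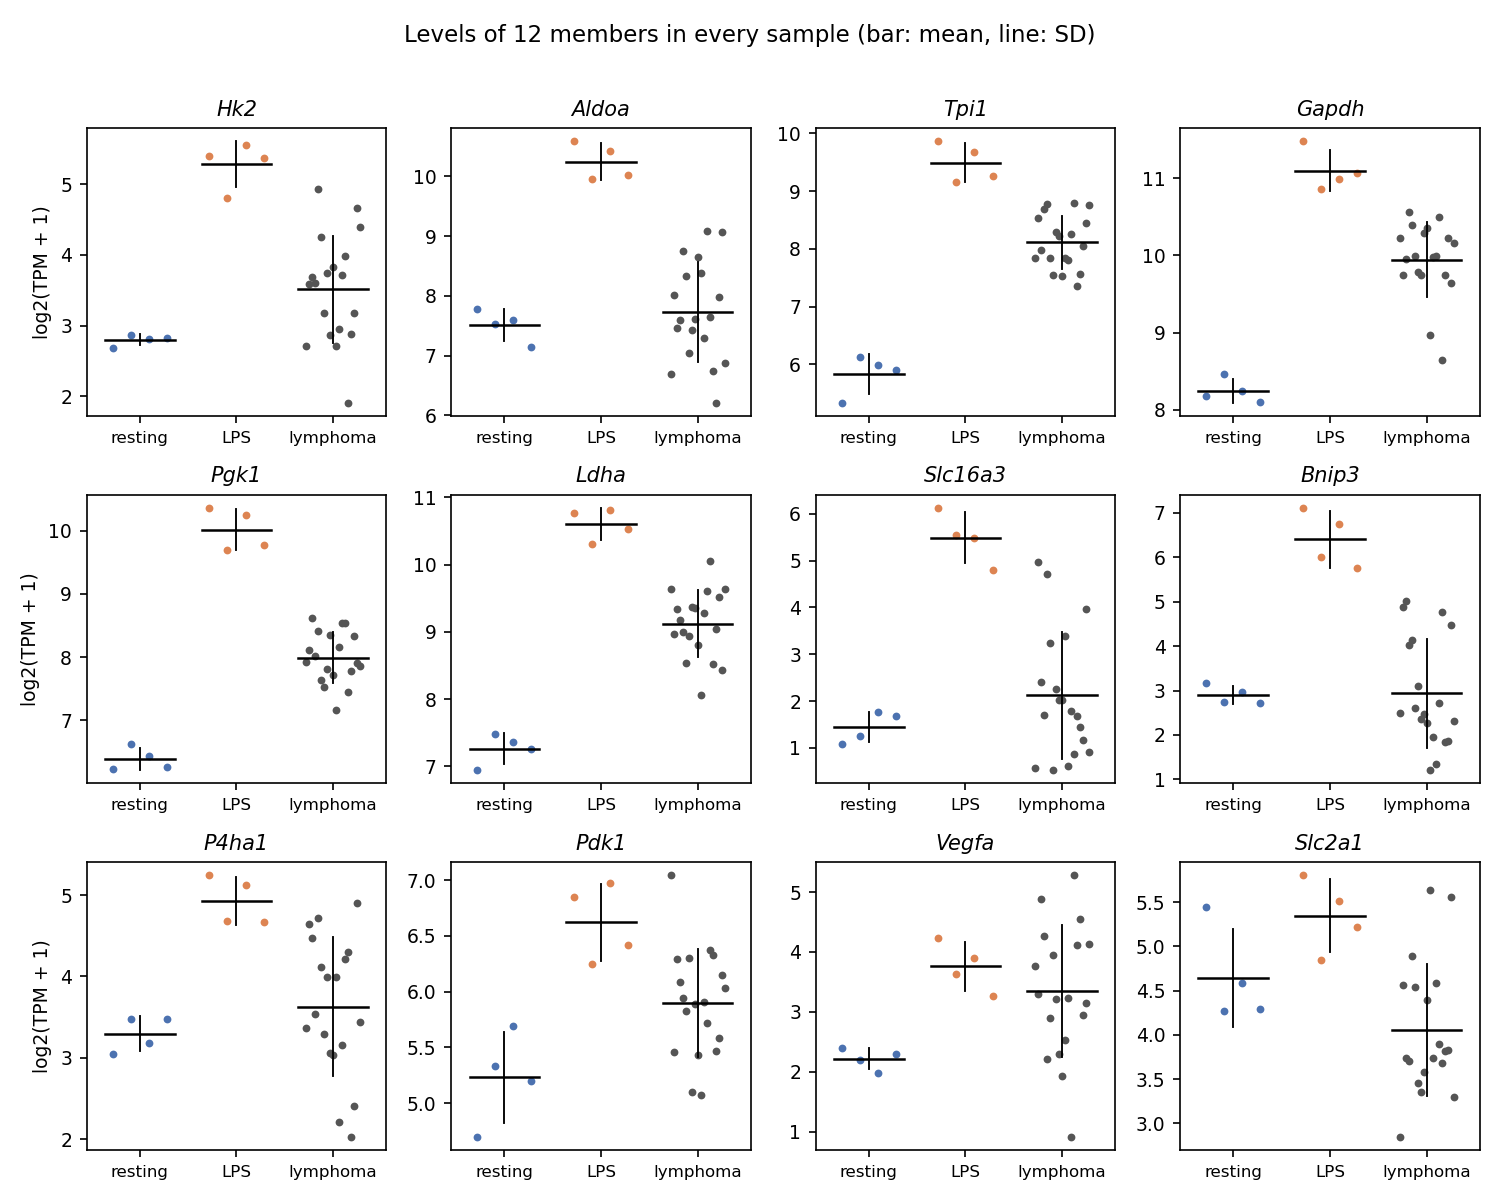
log2(TPM + 1) of 12 members (y axis) in each sample of the 3 groups, with the group mean (bar) and SD (line). Gapdh, Pgk1, Ldha and Tpi1 fall into 3 separate bands, whereas Slc16a3, Bnip3 and P4ha1 are high after LPS and spread on both sides of the resting samples in the lymphomas.

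Of the bifunctional regulators that set fructose 2,6-bisphosphate, the activator of phosphofructokinase, Pfkfb4 was lower after LPS and Pfkfb3 was not called. Pfkfb3, the form with the highest kinase activity, ranged from 17.5 to 55.6 TPM at rest, 18.1 to 22.5 TPM after LPS and 13.8 to 70.98 TPM (median 20.2) in the lymphomas, and passed in no comparison. Pfkfb4 stood at 8.95, 6.18, 9.25 and 5.99 TPM in resting cells, at 4.59, 1.15, 2.32 and 2.58 TPM after LPS and at 0.819 to 14.5 TPM (median 2.09) in the lymphomas. It was the only member below rest in every LPS sample, and 17 of 19 lymphomas were below the resting range too, lymphoma 11 alone being above it. The differences were -1.29 ± 0.27 (SE, limma adjusted p = 0.00143) after LPS and -1.20 ± 0.40 (SE, limma adjusted p = 0.0255) in lymphomas. The second was lost without the wt or co resting sample (adjusted p = 0.0906 and 0.0860), without libraries above 1% Gm10800 (0.104), in node lymphomas only (0.0910) and among separated names only (0.0738).

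The lower, energy-yielding arm of glycolysis had 5 of its 6 members higher after LPS and 5 of 6 higher in the lymphomas, both against the same resting samples. Over all genes 25.2% were higher after LPS and 14.5% in the lymphomas. Eno2, the member not called, met the filter in the second comparison through the lymphomas alone. Gapdh, the glyceraldehyde 3-phosphate dehydrogenase, stood at 288, 352, 302 and 272 TPM in resting cells, at 2863, 1861, 2029 and 2145 TPM after LPS and at 400.1 to 1517 TPM (median 1019) in the lymphomas. Pgk1, the first ATP-forming step, stood at 74.5, 97.2, 85.5 and 75.95 TPM in resting cells, at 1311, 830.5, 1209.8 and 873 TPM after LPS and at 142 to 391 TPM (median 241) in the lymphomas. In both genes the 3 groups did not overlap, with the lymphomas between resting and LPS cells. Gapdh means were 7.33-fold the resting mean after LPS and 3.40-fold in lymphomas, and Pgk1 means 12.7-fold and 3.16-fold. The differences were 2.86 ± 0.19 (SE, limma adjusted p = 4.35e-07) and 1.70 ± 0.25 (SE, limma adjusted p = 1.05e-05) for Gapdh, and 3.63 ± 0.20 (SE, limma adjusted p = 1.71e-07) and 1.60 ± 0.21 (SE, limma adjusted p = 2.9e-06) for Pgk1. Near-identical copies of Gapdh, 156 of them at 90% identity or more over at least 300 bases, held 2.42 to 26.9% of the summed level of gene and copies in a sample, so its level is uncertain. The 3 copies of Pgam1 held up to 24.8%, and copies of Bnip3, Ak4 and Ldhb up to 12.5%, 58.9% and 77.0%.

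Pgam1, the phosphoglycerate mutase, stood at 50.5, 64.9, 52.3 and 53.2 TPM in resting cells, at 594, 437, 660.1 and 537 TPM after LPS and at 81.3 to 273 TPM (median 154) in the lymphomas. Eno1, the main enolase, stood at 114, 126, 147 and 113 TPM in resting cells, at 1028, 883, 1078 and 911 TPM after LPS and at 279 to 1096 TPM (median 467) in the lymphomas. Pkm, pyruvate kinase, stood at 124, 157, 142 and 122 TPM in resting cells, at 1535, 1046, 1338 and 1147 TPM after LPS and at 264 to 771 TPM (median 424) in the lymphomas. Pgam1 and Pkm again formed 3 groups without overlap, and in Eno1 only lymphoma 14 reached the LPS range. After LPS they differed from rest by 3.30 ± 0.18 (SE, limma adjusted p = 1.71e-07), 2.96 ± 0.17 (SE, limma adjusted p = 1.92e-07) and 3.20 ± 0.18 (SE, limma adjusted p = 1.92e-07) respectively. In lymphomas the differences were 1.42 ± 0.27 (SE, limma adjusted p = 0.000247) for Pgam1, 1.90 ± 0.21 (SE, limma adjusted p = 2.27e-07) for Eno1 and 1.67 ± 0.23 (SE, limma adjusted p = 3.87e-06) for Pkm. Relative to LPS-treated cells the lymphoma means were 28.5%, 49.9% and 35.8%, and the difference for Eno1 was -1.06 ± 0.21 (SE, limma adjusted p = 0.00129), a call lost when only node lymphomas were used (adjusted p = 0.0777). Eno2, the neuronal enolase of the HIF-like class, stayed at 0.349 to 3.52 TPM at rest, 0.975 to 2.98 TPM after LPS and 0.208 to 6.99 TPM (median 1.07) in the lymphomas, and passed in no comparison. Without the cr resting sample, its highest resting one, the LPS difference was 0.76 (adjusted p = 0.0333). Eno1b, a retrogene close to Eno1, was at 0 in all resting samples, and at most 0.808 TPM in all others but lymphoma 19 (1.90 TPM), with group means of 0.140 TPM after LPS and 0.254 TPM in lymphomas.

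Within Pkm the transcript with the upstream exon held a small share. In the resting samples it made up 15.4, 8.63, 11.6 and 8.98% of Pkm TPM, in the LPS samples 4.27, 2.46, 3.77 and 3.74%, and in the lymphomas 2.21 to 9.50% (mean 4.88 ± 2.23%, SD). Every LPS sample was below every resting sample, while the lymphomas reached into the resting range. In TPM this transcript was itself higher after LPS, at 25.7 to 65.6 against 10.9 to 19.1 at rest. By group mean, Pfkm changed its leading transcript. The one starting upstream (ENSMUST00000163507) led in wt and co but not in cr and hv resting cells, and held 45.8 to 78.0% of Pfkm TPM at rest, at most 14.9% after LPS and 0 to 100% in lymphomas, at levels of 0 to 2.45 TPM. Of the 32 members, 26 had the same leading transcript in all 3 groups, and 6 members have 1 transcript. Shares of transcripts are estimates from reads that can fit several transcripts, and were not tested.

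Ldha was higher in LPS-treated cells and in lymphomas than at rest, and the lactate exporter Slc16a3 was higher after LPS. Ldha, the lactate dehydrogenase subunit that favours lactate formation, stood at 122, 178, 164 and 152 TPM in resting cells, at 1746, 1265, 1796 and 1477 TPM after LPS and at 266 to 1063 TPM (median 576) in the lymphomas. The groups did not overlap, and mean Ldha was 10.2-fold the resting mean after LPS and 3.81-fold in lymphomas. The differences were 3.34 ± 0.19 (SE, limma adjusted p = 1.92e-07) and 1.86 ± 0.25 (SE, limma adjusted p = 4.4e-06), and lymphomas differed from LPS by -1.49 ± 0.25 (SE, limma adjusted p = 0.000229). Ldhb, the subunit that favours pyruvate formation, was too low to be tested, at 0.136 to 0.786 TPM at rest, 0.0909 to 0.638 TPM after LPS and 0.0621 to 4.41 TPM (median 0.389) in the lymphomas, where lymphoma 10 alone exceeded 0.711 TPM.

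Slc16a3 (MCT4, the exporter of highly glycolytic cells) stood at 1.11, 1.40, 2.38 and 2.19 TPM in resting cells, at 68.6, 45.5, 43.8 and 26.8 TPM after LPS and at 0.440 to 30.4 TPM (median 2.46) in the lymphomas. Its mean was 26.1-fold the resting mean after LPS, a difference of 4.04 ± 0.27 (SE, limma adjusted p = 4.71e-07). The lymphomas ran from below the resting range, in 5, to the LPS range, in lymphoma 2 alone. Their mean of 6.08 ± 8.52 TPM (SD, n = 19) did not pass against rest, with 0.68 ± 0.66 (SE, limma adjusted p = 0.445), and did against LPS, with -3.36 ± 0.66 (SE, limma adjusted p = 0.00114). Slc16a1 (MCT1, which carries lactate in both directions) stood at 12.3, 43.6, 23.9 and 63.3 TPM in resting cells, at 59.8, 49.3, 85.5 and 93.3 TPM after LPS and at 8.87 to 120.1 TPM (median 58.4) in the lymphomas. Resting samples already spread over a wide range, with wt lowest and hv highest, and all groups overlapped. The LPS difference of 1.18 ± 0.47 (SE, limma adjusted p = 0.0595) did not pass, but did without the hv resting sample (1.53, adjusted p = 0.0118), without the cr LPS sample (1.34, adjusted p = 0.0397) and under median-of-ratios scaling (1.31, adjusted p = 0.0462).

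The pyruvate dehydrogenase kinases, which close the entry of pyruvate into mitochondrial oxidation, both rose after LPS. Pdk1, the hypoxia-linked kinase, stood at 24.9, 39.5, 50.6 and 35.7 TPM in resting cells, at 115, 74.9, 124 and 84.5 TPM after LPS and at 32.7 to 131 TPM (median 59.1) in the lymphomas. Every LPS sample was above every resting one, and 13 of 19 lymphomas were above the resting range, with lymphoma 1 higher than any LPS sample. The differences were 1.39 ± 0.24 (SE, limma adjusted p = 0.000302) after LPS and 0.66 ± 0.25 (SE, limma adjusted p = 0.0482) in lymphomas. Pdk1 was the only HIF-like member called higher in lymphomas, and the call was lost without the wt, cr or hv resting sample (adjusted p = 0.235, 0.0866 and 0.107), after rescaling without the dominant genes (0.120), without a filter (0.0727), without libraries above 1% Gm10800 (0.217), in node lymphomas only (0.131) and among separated names only (0.0961). Pdk3 stood at 13.5, 14.5, 13.3 and 11.9 TPM in resting cells, at 39.4, 27.7, 36.1 and 32.3 TPM after LPS and at 13.3 to 52.02 TPM (median 21.5) in the lymphomas. It rose with LPS by 1.28 ± 0.17 (SE, limma adjusted p = 4.39e-05), and 17 of 19 lymphomas were above the resting range with a difference of 0.71 ± 0.28 (SE, limma adjusted p = 0.0547). That difference passed when only lung lymphomas (0.93, adjusted p = 0.0191) or only joined names (0.998, adjusted p = 0.0187) were used, with all 3 groups in 1 fit (0.71, adjusted p = 0.0394) and under median-of-ratios scaling (0.82, adjusted p = 0.00497).

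Of the hypoxia-linked members outside glycolysis, 4 of the 5 other than Ak4 and Egln3 rose after LPS, and none of 6 tested was called in the lymphomas against rest. Over all genes 25.2% were higher after LPS, and 31.9% were called in the lymphomas in either direction. Ak4, 1 of the 6, met the filter there through the lymphomas alone. Bnip3, an inducer of mitophagy, stood at 7.96, 5.71, 6.81 and 5.56 TPM in resting cells, at 137, 63.00, 106 and 53.1 TPM after LPS and at 1.31 to 31.3 TPM (median 4.67) in the lymphomas. LPS samples were all above the other groups, and lymphomas lay on both sides of rest, 6 above and 11 below its range. Its mean after LPS was 13.8-fold the resting mean, a difference of 3.51 ± 0.28 (SE, limma adjusted p = 2.56e-06). The lymphoma difference from rest was 0.044 ± 0.59 (SE, limma adjusted p = 0.961), and that from LPS was -3.46 ± 0.60 (SE, limma adjusted p = 0.000324). Ak4, a mitochondrial adenylate kinase, stood at 0.149, 0.0233, 0.229 and 0.150 TPM in resting cells, at 22.5, 14.5, 19.3 and 14.3 TPM after LPS and at 0 to 8.23 TPM (median 0.695) in the lymphomas. Resting levels were near the floor of 3 read pairs (0.0298 to 0.0379 TPM in these libraries, counting error only), which 1 resting sample did not exceed; 4 lymphomas were likewise at or under theirs. All LPS samples exceeded every other sample. As a description, the LPS difference was 4.01 ± 0.20 (SE) with a pseudocount of 1 and 6.28 with 0.1, so its size depends on that choice. Egln3 (PHD3, an oxygen-sensing prolyl hydroxylase and HIF target) stood at 0.106, 0.0375, 0.0711 and 0.0836 TPM in resting cells, at 7.12, 9.32, 9.61 and 5.14 TPM after LPS and at 0 to 4.34 TPM (median 0.241) in the lymphomas. All LPS samples exceeded every other sample, and 12 of 19 lymphomas were above the resting range. As a description, the LPS difference was 2.9999 ± 0.22 and the lymphoma difference from LPS -2.60 ± 0.33 (SE), or 5.47 and -4.38 with a pseudocount of 0.1; it was too low for a test of lymphomas against rest.

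Egln1 (PHD2, the main oxygen sensor acting on HIF) stood at 6.50, 5.32, 6.60 and 5.29 TPM in resting cells, at 17.2, 10.8, 15.96 and 13.9 TPM after LPS and at 1.96 to 17.5 TPM (median 7.36) in the lymphomas. It rose with LPS by 1.15 ± 0.19 (SE, limma adjusted p = 0.000218), and lymphomas spanned both groups. P4ha1, a collagen prolyl hydroxylase subunit, stood at 7.26, 10.2, 8.08 and 10.2 TPM in resting cells, at 36.99, 24.7, 33.9 and 24.5 TPM after LPS and at 3.07 to 29.04 TPM (median 10.6) in the lymphomas. Resting and LPS samples were apart, and 10 of 19 lymphomas were above and 4 below the resting range. P4ha1 rose with LPS by 1.64 ± 0.19 (SE, limma adjusted p = 2.18e-05), and lymphomas differed from LPS by -1.31 ± 0.42 (SE, limma adjusted p = 0.0372), a call lost without the wt, cr, co or hv LPS sample (adjusted p = 0.121, 0.0636, 0.127 and 0.0833), in lung lymphomas only (0.0560), without a filter (0.0552) and without libraries above 1% Gm10800 (0.148). Vegfa, the angiogenic growth factor, stood at 4.25, 3.58, 2.94 and 3.91 TPM in resting cells, at 17.9, 11.4, 13.9 and 8.63 TPM after LPS and at 0.878 to 37.9 TPM (median 8.40) in the lymphomas. It rose with LPS by 1.54 ± 0.22 (SE, limma adjusted p = 8.39e-05), lost in the fit of all 3 groups (adjusted p = 0.0636), and 15 of 19 lymphomas were above the resting range while the test against rest gave 1.13 ± 0.53 (SE, limma adjusted p = 0.103). Ddit4 (REDD1, a stress-induced inhibitor of mTORC1) stood at 12.7, 31.3, 38.4 and 27.5 TPM in resting cells, at 48.6, 19.7, 26.2 and 17.1 TPM after LPS and at 12.7 to 64.9 TPM (median 28.4) in the lymphomas. The wt sample was the lowest of the resting and the highest of the LPS samples, the groups overlapped, and no comparison passed.

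**Figure D3:**
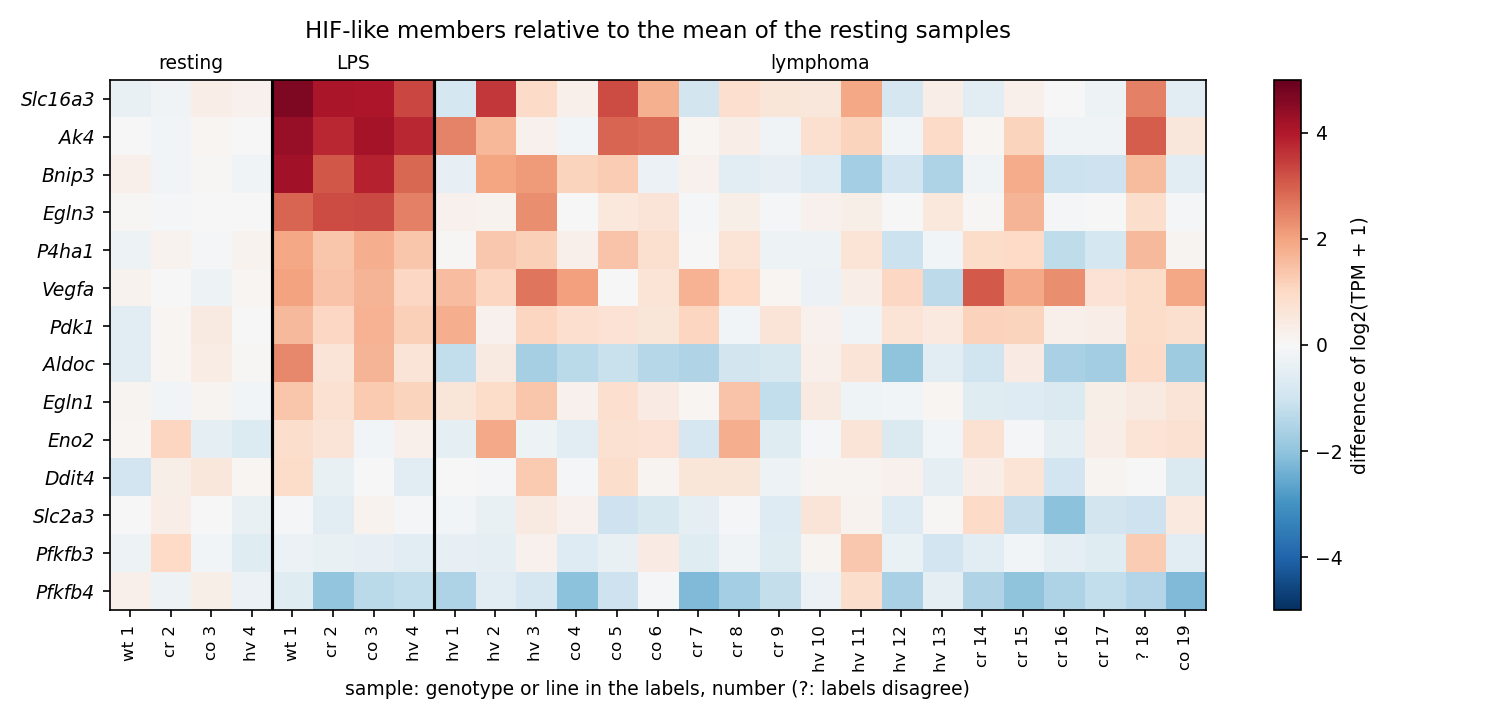
Each of the 14 HIF-like members (rows) in each of the 27 samples (columns, by group and number), as the difference of log2(TPM + 1) from the mean of the 4 resting samples; red is higher and blue lower. The 4 LPS columns are red in the upper rows, and the lymphoma columns differ from one another, lymphomas 2, 3, 5 and 18 being red in most of the upper rows and lymphomas 12, 16 and 17 pale or blue apart from Vegfa.

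By median, the lymphomas differed from one another more in HIF-like than in MYC-like members, but the classes overlapped. Slc16a1 was the widest MYC-like member (13.6-fold between lowest and highest lymphoma), and Pdk1 the narrowest HIF-like one (4.01-fold). Between the lowest and the highest lymphoma, the 13 MYC-like members differed by 2.70 to 13.6-fold (median 3.93), and the 12 HIF-like members with no lymphoma at 0 by 4.01 to 69.2-fold (median 13.7). This was a description and low levels widen such folds: Ak4 and Egln3 were each at 0 in 2 lymphomas. Counting in each lymphoma the members above all 4 resting samples gave 8 to 12 of 13 MYC-like members (median 10), and 1 to 10 of 14 HIF-like members (median 5). Below all 4 resting samples were 0 to 4 MYC-like members (median 1) and 2 to 8 HIF-like members (median 4). The share over all genes was not computed for these counts. Lymphoma 3 (hv, lung) and lymphoma 18 (lung, labels in disagreement) had 10 HIF-like members above rest, and lymphoma 16 (cr, mesenteric node) had 1 and was the lowest lymphoma in 7 members. Lymphoma 14 (cr, mesenteric node) was the highest in 6 members, among them Eno1, Ldha, Pkm and Tpi1. Lymphoma 16 was also the 1 lymphoma with a Gm10800 share above 1%. Markers of other cells varied among the lymphomas as well. The 5 fibroblast markers summed to 0.227 to 56.2 TPM, with 45.7, 20.4 and 8.96 TPM in lymphomas 3, 18 and 16, and the 8 macrophage markers to 4.60 to 73.4 TPM, with 37.4, 44.5 and 4.60 TPM in the same 3. No marker of either list was at 0 in all lymphomas. The part of such cells in the spread was not tested.

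No member was called between lines or sites. All node lymphomas had separated sample names, so a difference between sites could not be fully told apart from one between name styles. In a limma fit with line and site as terms over the 18 lymphomas of undisputed line, 0 of 30 members passed between hv and cr, between co and the other lines or between nodes and lung, against 0%, 0% and 0.016% of 12480 genes (0.00801% higher and 0.00801% lower between sites). At an unadjusted p below 0.05 there were 2 members between hv and cr (Hk1 and Pfkfb4), 2 between co and the others (Hk2 and Tpi1) and 0 between sites. All genes reached that level in 9.13%, 4.60% and 5.78% of cases. Hk1 averaged 12.8 ± 8.60 TPM in 7 hv and 3.84 ± 1.94 TPM in 7 cr lymphomas (SD), a log2 difference of 1.30 ± 0.56 (SE, limma adjusted p = 0.546). Hk2 averaged 19.7 ± 7.61 TPM in 4 co and 8.91 ± 3.602 TPM in the 14 others, a log2 difference of 1.06 ± 0.33 (SE, limma adjusted p = 0.877).

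Ratios between isozymes cancel most of the scaling of a library. 11 pairs were compared as log2((a + 1)/(b + 1)) in the 3 comparisons, which made 33 tests by exact two-sided permutation of the sample labels. The Hk2 to Hk1 ratio was -1.71 ± 0.22 in resting cells, 0.74 ± 0.32 after LPS and 0.57 ± 1.16 in the lymphomas (SD). All 19 lymphomas and all 4 LPS samples were above all resting samples. The lymphoma difference from rest was 2.29 (exact two-sided permutation p = 0.000565, adjusted p = 0.0112), and the lymphomas and LPS samples differed by -0.17 (exact two-sided permutation p = 0.783, adjusted p = 0.833). The Eno1 to Eno2 ratio rose in lymphomas by 1.68 (exact two-sided permutation p = 0.00440, adjusted p = 0.0291), but not with a pseudocount of 0.1 (adjusted p = 0.121) nor without the wt or cr resting sample (0.0589 and 0.0725).

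Ldha to Ldhb was 6.85 ± 0.35 in resting cells, 10.13 ± 0.45 after LPS and 8.60 ± 0.80 in the lymphomas. It differed from rest in lymphomas by 1.75 (exact two-sided permutation p = 0.00102, adjusted p = 0.0112) and from LPS by -1.53 (exact two-sided permutation p = 0.00181, adjusted p = 0.0149). Ldhb was near its floor, and neither call held with a pseudocount of 0.1 (adjusted p = 0.0786 and 0.0963); the second was also lost without the wt or co LPS sample (0.0786 and 0.0557). Egln1 to Egln3 was 2.68 ± 0.13 in resting cells, 0.83 ± 0.50 after LPS and 2.51 ± 0.80 in the lymphomas. Lymphomas were above LPS by 1.68, or by 3.35 with a pseudocount of 0.1, so the size depends on that choice. This difference is given as a description, since Egln3 met the filter on low values through the LPS samples alone. Between LPS and rest none of 11 ratios passed by this test, since 4 samples against 4 allow no p below 0.0286 and the smallest adjusted p was 0.0725; 6 of 11 reached 0.0286. Among them Slc16a1 to Slc16a3 was 3.52 ± 0.88 at rest and 0.66 ± 0.88 after LPS (SD, n = 4 each).

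**Figure D4:**
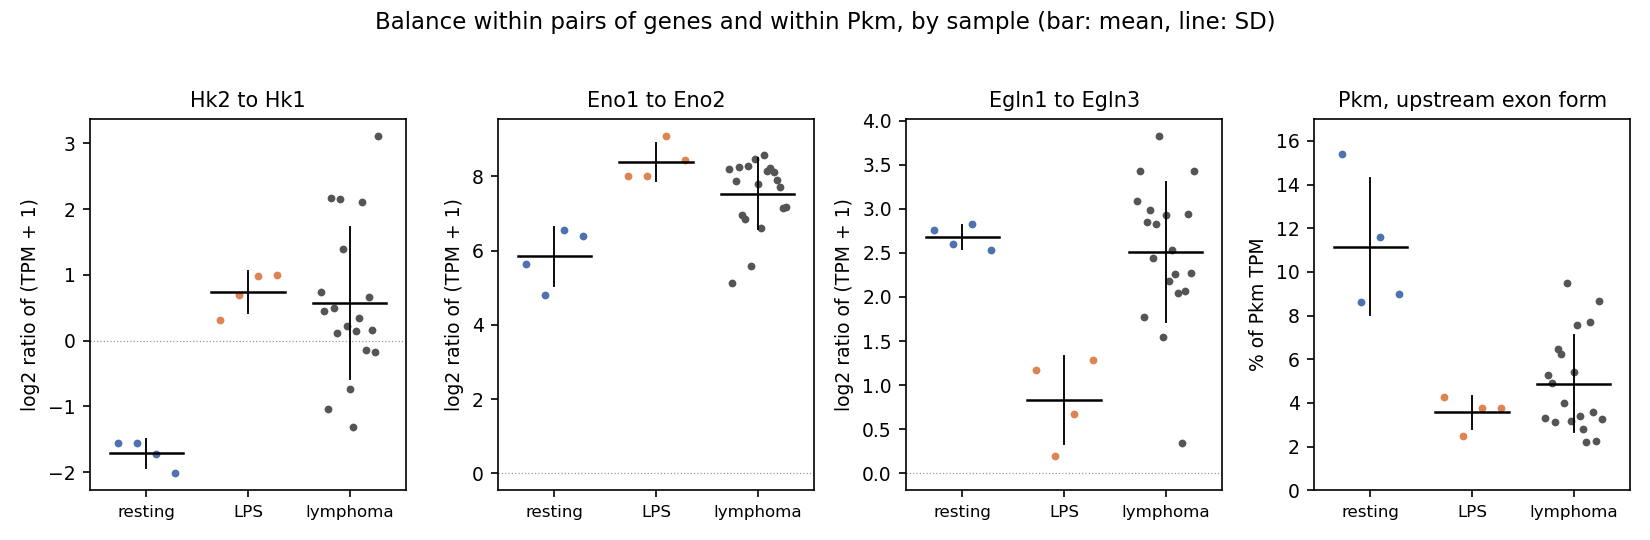
The log2 ratio of (TPM + 1) for 3 pairs and the share of Pkm TPM held by the upstream-exon transcript (y axes) in each sample of the 3 groups, with mean (bar) and SD (line). For Hk2 to Hk1 the resting samples lie at -2.02 to -1.55 and the lymphomas at -1.31 or above; for Pkm the resting samples lie at 8.63% or above and the LPS samples at 4.27% or below.

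To see which members varied among lymphomas with MYC-linked and which with hypoxia-linked genes, each of 30 members was compared over the 19 lymphomas with Myc, with Hif1a, with the mean of 20 MYC anchors (nucleolar and biosynthetic genes outside the list) and with the mean of the 12 hypoxia anchors that reached 1 TPM in at least 4 lymphomas, 120 relations in all. All values of a sample share its library, scaling and depth. The MYC and hypoxia anchors were related to each other by r = -0.36, Hif1a to the hypoxia anchors by 0.73, Myc to the MYC anchors by 0.33 and Myc to Hif1a by -0.20, as descriptions. With the MYC anchors 5 members were positively and 3 negatively related at an adjusted p below 0.05, all 5 of them MYC-like. With the hypoxia anchors 8 were positively related, 5 of them HIF-like, and with Hif1a 12 positively and 1 negatively. With Myc itself 2 were, both HIF-like. Under median-of-ratios scaling the counts were 10 for the MYC anchors, 2 for the hypoxia anchors, 5 for Hif1a and 4 for Myc. Only members were compared, so the share of all genes related in this way is not known. The counts are therefore not read as a trait of the members.

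Ldha followed the MYC anchors most closely, with Pearson r = 0.91 and Spearman rho = 0.90 (permutation p adjusted over the relations = 0.00120 and 0.00120, n = 19). These p-values are the smallest that the permutations can give. Leaving out the 2 lymphomas farthest from the median of the anchors left r = 0.85, and r was 0.58 in the 9 joined-name and 0.99 in the 10 separated-name lymphomas. Slc16a1 had Pearson r = 0.66 and Spearman rho = 0.71 (permutation p adjusted over the relations = 0.0189 and 0.0177, n = 19), with 0.55 without the farthest 2 and 0.43 in the 9 joined-name and 0.75 in the 10 separated-name lymphomas. Both held under median-of-ratios scaling (r = 0.95 and 0.76). Pgk1, Gapdh and Pkm had r of 0.66, 0.64 and 0.57 (permutation adjusted p = 0.0189, 0.0220 and 0.0420), but rho did not pass for any of the 3. Their relation did not hold within the joined-name lymphomas, where r was 0.097, -0.085 and -0.015. Without the farthest 2 lymphomas r was 0.43, 0.43 and 0.32, so that much of it rests on those. Slc2a1, though placed among the MYC-like members, was negatively related to the MYC anchors (r = -0.65) and positively to the hypoxia anchors (0.62), with rho of -0.44 and 0.45 that did not pass (permutation adjusted p = 0.0196 and 0.0226 for r, 0.171 and 0.171 for rho).

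P4ha1 followed the hypoxia anchors, with Pearson r = 0.81 and Spearman rho = 0.84 (permutation p adjusted over the relations = 0.00360 and 0.00180, n = 19). It kept r = 0.75 without the farthest 2 lymphomas, and r was 0.94 in the 9 joined-name and 0.79 in the 10 separated-name lymphomas. Pfkl had Pearson r = 0.76 and Spearman rho = 0.75 (permutation p adjusted over the relations = 0.00456 and 0.0146, n = 19), with 0.63 without the farthest 2 and 0.75 in the 9 joined-name and 0.82 in the 10 separated-name lymphomas. These 2 relations held under median-of-ratios scaling (r = 0.74 and 0.64). Slc16a3 had Pearson r = 0.77 and Spearman rho = 0.74 (permutation p adjusted over the relations = 0.00420 and 0.0146, n = 19), and r was 0.80 in the 9 joined-name and 0.82 in the 10 separated-name lymphomas, but 0.55 under median-of-ratios scaling (adjusted p = 0.0681). Ak4, Pfkfb3, Eno2, Slc2a1 and Hk1 had r of 0.57 to 0.69 and were likewise lost under that scaling. With Hif1a, Slc16a3 had r = 0.77 and rho = 0.69 (0.00420 and 0.0181; r = 0.68 without the farthest 2), Hk1 r = 0.76 and rho = 0.67 (0.00560 and 0.0269; r = 0.71 without the farthest 2), Ak4 r = 0.70 and rho = 0.71 (0.0138 and 0.0177; r = 0.54 without the farthest 2) and Slc16a1 r = -0.58 and rho = -0.51 (0.0411 and 0.124; r = -0.48 without the farthest 2), and r passed under both scalings. With Myc the same held for Vegfa, with r = 0.66 and rho = 0.55 (0.0189 and 0.0920; r = 0.46 without the farthest 2), and Pdk1, with r = 0.62 and rho = 0.64 (0.0226 and 0.0383; r = 0.62 without the farthest 2). The values in parentheses are permutation p adjusted over the 120 relations.

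**Figure D5:**
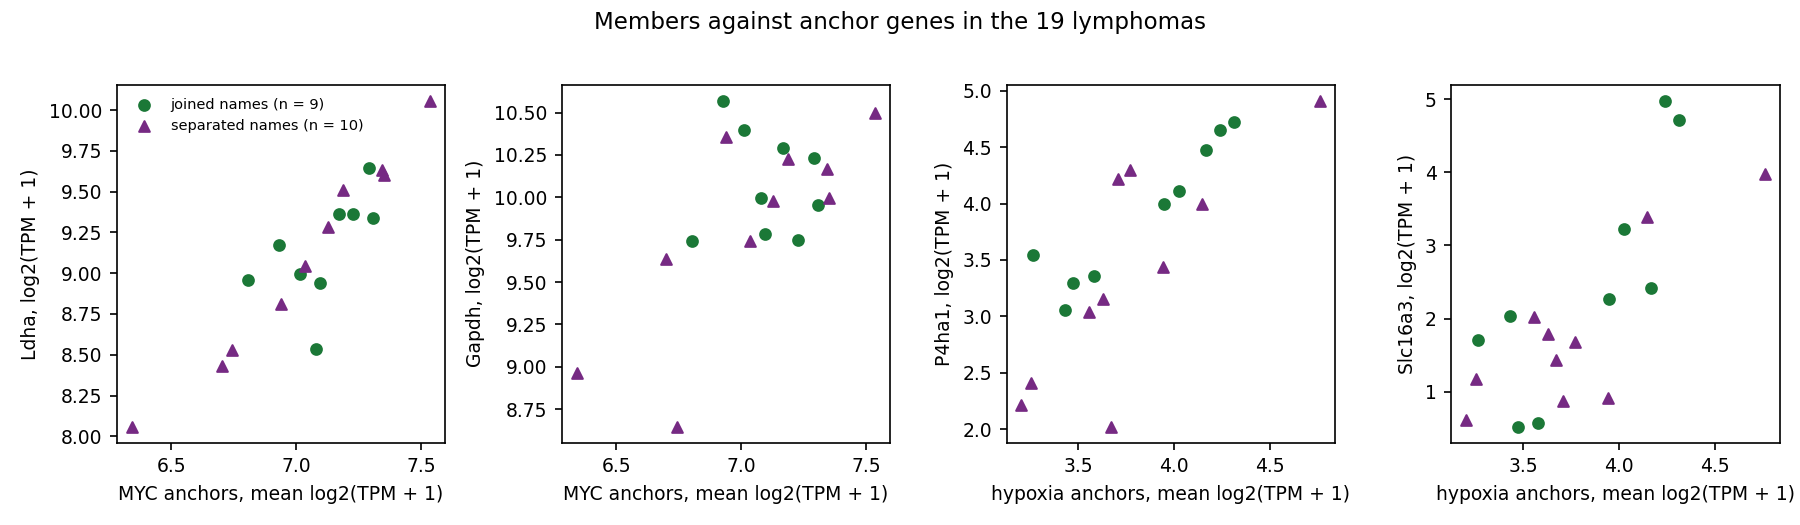
log2(TPM + 1) of 4 members (y axes) against the mean log2(TPM + 1) of the MYC or hypoxia anchors (x axes) in the 19 lymphomas, with the 2 styles of sample name marked. Ldha rises along the MYC anchors in both styles, Gapdh only among the separated names, and P4ha1 and Slc16a3 rise along the hypoxia anchors in both.

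Myc passed in no comparison, and Hif1a was lower after LPS. Myc stood at 185, 121, 109.9 and 89.01 TPM in resting cells, at 54.98, 155, 115 and 136 TPM after LPS and at 78.8 to 362 TPM (median 164) in lymphomas. The differences were -0.18 ± 0.33 after LPS, 0.51 ± 0.32 in lymphomas against rest and 0.68 ± 0.34 against LPS (SE, limma adjusted p = 0.671, 0.231 and 0.183). Hif1a, the oxygen-regulated subunit of HIF, stood at 59.3, 42.1, 47.9 and 43.3 TPM at rest, 35.4, 24.01, 30.6 and 33.97 TPM after LPS and 20.4 to 113 TPM (median 36.5) in lymphomas. It was lower after LPS, with a difference of -0.62 ± 0.19 (limma adjusted p = 0.0119), as were its partner Arnt (-0.77 ± 0.20) and the asparaginyl hydroxylase Hif1an (-0.58 ± 0.20), 3 of 5 hypoxia factors tested, where 33% of all genes were lower. None of the 5 was called in lymphomas against rest or against LPS. HIF is known to be set mainly by protein breakdown, which these data do not measure.

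The MYC anchors were all called higher after LPS (20 of 20, median 1.65), where 25.2% of all genes were higher. Both anchor lists were chosen with earlier results of these data known, so their counts are a description and no independent test. In lymphomas 18 of 20 were higher than at rest (median 1.07), where 14.5% of all genes were higher. 12 of 20 were lower in lymphomas than after LPS (median -0.80), where 8.56% of all genes were lower. The largest differences after LPS were those of Srm (spermidine synthase, 2.89 ± 0.26), Hspd1 (the mitochondrial chaperonin, 2.82 ± 0.22), Pa2g4 (2.24 ± 0.23) and Nop16 (2.23 ± 0.21), which in lymphomas against the same resting samples differed by 1.65 ± 0.25, 1.41 ± 0.25, 1.31 ± 0.21 and 1.31 ± 0.29. Of 12 hypoxia anchors tested, 6 were higher after LPS and none lower (median 0.83), where 25.2% of all genes were higher and 33% lower. In lymphomas 4 of 12 were higher and 1 lower (median 0.51), where 14.5% of all genes were higher and 17.4% lower. 3 anchors, P4ha2, Adm and Plod2, met the filter in these comparisons through the LPS or lymphoma samples alone; without them 5 of 9 were higher after LPS and 4 of 9 in lymphomas. Fam162a (2.54 ± 0.18), Ero1l (an oxidase of protein folding, 2.14 ± 0.17), Higd1a (2.08 ± 0.21) and Ankrd37 (1.49 ± 0.40) led after LPS. In lymphomas Ankrd37 (1.32 ± 0.49), Fam162a (0.86 ± 0.23) and Higd1a (0.66 ± 0.20) were higher and Bnip3l, a mitophagy receptor abundant in maturing red cells, was lower (-1.45 ± 0.29). Lymphomas were below LPS-treated cells in 6 of 13 hypoxia anchors, led by Fam162a (-1.67 ± 0.23) and Ero1l (-1.52 ± 0.21), and above them in 1. Over all genes 8.56% were lower and 5.27% higher.

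Other glycolytic genes went in both directions after LPS. Of 12 tested, 4 were higher and 5 lower (median -0.19, against 25.2% higher, 33% lower and -0.16 over all genes). Hk3, Slc2a8 and Slc16a7 met the filter there through the resting samples alone. Without these 3, 4 of 9 were higher and 3 lower (median 0.15). In lymphomas, of 13 tested, none was higher and 3 were lower (median -0.32, against 14.5%, 17.4% and -0.06). Pgam2 met the filter there through the lymphomas alone and Slc16a7 through the resting samples alone. Without these 2, none of 11 was higher and 2 were lower (median -0.32). Of the genes named next, Hk3 and Pdk2 in the LPS comparison and Slc16a7 in both comparisons with rest met the filter through the resting samples alone. Their differences there are given as a description. Bpgm, the maker of 2,3-bisphosphoglycerate in red cells, fell from a mean of 192 TPM at rest to 11.8 TPM after LPS and 6.81 TPM in lymphomas (-3.50 ± 0.68 and -4.27 ± 0.38), and the erythroid markers fell with it as given above. Hk3, the hexokinase of myeloid cells, fell from 8.30 TPM to 0.413 and 0.934 TPM (-2.48 ± 0.44 and -2.15 ± 0.37), beside the fall of the macrophage markers. Slc16a7 (MCT2) was lower in both (-1.22 ± 0.25 and -1.66 ± 0.14), and Pgm1, which links glycogen to glycolysis, was higher after LPS (1.65 ± 0.21). The same shares of all genes apply to the next lists. Of 10 genes for the entry of pyruvate into mitochondria, Pdk2 fell after LPS (-1.11 ± 0.22), given as a description. Of the 9 others, 6 rose and none fell after LPS, led by the dehydrogenase subunit Dlat (1.59 ± 0.19). In lymphomas 4 of the 10 rose, led by Pdhb (0.64 ± 0.22) and Dlat (0.63 ± 0.22). Of 7 pentose phosphate genes, 4 rose after LPS, led by Tkt (1.26 ± 0.20) and Pgd (1.05 ± 0.19), and 3 in lymphomas, Pgls (0.87 ± 0.22), Tkt (0.80 ± 0.25) and Pgd (0.55 ± 0.19). Where 8.56% of all genes were lower and 5.27% higher, lymphomas were below LPS-treated cells in Slc2a6 (-1.81 ± 0.41), Pgm1 (-1.25 ± 0.24), Tigar (-0.70 ± 0.23), Dlat (-0.95 ± 0.23), Pdp2 (-0.73 ± 0.23) and G6pdx (-0.67 ± 0.21), and above them in Pgls (0.66 ± 0.22).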

How the data were processed

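Total RNA depleted of ribosomal RNA was sequenced in pairs from stranded libraries, per the labels' protocols. The deposited table holds TPM per transcript in 27 samples, made by the authors; the submitters' processing notes name kallisto 0.43, FastQC and the builds mm10 and GRCm38, with no order. The transcript annotation and strand setting were not given in the sources used here. TPM is scaled to a fixed total in each library, so genes that take a large share lower all others. Transcripts were summed by gene to 30735 genes. Steps of the lowest TPM values, taken as single read pairs, gave each library's depth; 61.0 to 76.4% of values came out whole within 0.02. The submitters' TPM are estimates, so no count test was run.

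Tests used limma 3.58.1 (R 4.3.3) with trend and robust options on log2(TPM + 1), over genes with at least 1 TPM in at least 4 samples of the fit, with Benjamini-Hochberg adjustment over all genes and a threshold of 0.05. A fold on this scale understates the change of low genes. Ratios were tested by exact permutation, correlations by 100000 permutations (Python 3.11.15, scipy 1.17.1). Lymphoma 18 was left out of the line and site fit. Promoters on chromosome 18 were left out of the motif shares. Alternatives were another pseudocount, no filter, 2 other scalings, subsets of libraries, leaving out single samples, 1 fit of all 3 groups and a genotype block. All 32 members are named, and from each other list up to 4 called genes with the largest differences, plus Myc, Hif1a and Eno1b. Members and lists were chosen with earlier results of these data known.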

Additional observations from a re-analysis of the deposited data

Results flagged for a closer look

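Pfkl in the hv resting sample was 16.99 TPM, while the other 3 resting samples lay between 22.0 and 23.1 TPM. The gap took 0.846 of the range of the 4 samples, above Dixon's 95% critical value of 0.829 for 4. It was the 1 group marked among 64 groups of 4 samples tested, where chance marks about 1 in 20. All 4 LPS samples were above all 4 resting samples with or without it.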

How the results depend on the processing

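Counting Ak4 and Egln3, 20 of 23 members called higher after LPS, 7 of 8 higher in lymphomas and 15 of 18 lower in lymphomas than after LPS kept their call under every alternative in which they were tested. Ak4 and Egln3 are counted among the 20, and Egln3 among the 15, as a description only, since there they met the filter through the LPS samples alone. Pfkfb4 kept its fall after LPS. Leaving out 1 sample at a time left 21 to 24, 7 to 8 and 16 to 17 calls; Ak4 and Egln3 then missed the filter on low values without an LPS sample. Members called lower in lymphomas than at rest (2) numbered 1 with a pseudocount of 0.1, without a filter, in lung lymphomas only and in node lymphomas only, 0 without libraries above 1% Gm10800 and among separated names, and 0 to 1 without 1 resting sample. Isozyme ratios called with a pseudocount of 0.1 were 1 in lymphomas against rest (3) and 1 against LPS (2), and 1 to 2 against LPS without 1 sample. The counts against LPS include Egln1 to Egln3, which is given above as a description. Under median-of-ratios scaling, relations called across lymphomas were 4 for Myc (2), 5 for Hif1a (13) and 2 for the hypoxia anchors (8). The cause was not tested for any of these.

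Signs turned in 34 settings, for 11 differences in 9 genes, none of which was called. After LPS against rest these were Slc2a3 (0.018 under median-of-ratios scaling, 0.048 without libraries above 1% Gm10800, -0.24 to 0.017 without 1 sample), Hk1 (-0.11 rescaled, -0.16 to 0.17 without 1 sample) and Ddit4 (-0.13 and -0.31 to 0.20). In lymphomas against rest they were Bnip3 (-0.025 with a pseudocount of 0.1, -0.093 rescaled, -0.60 in nodes, -0.42 among separated names, -0.017 to 0.13 without 1 sample), Ddit4 (-0.12 without libraries above 1% Gm10800, -0.12 in nodes, -0.046 among separated names, -0.18 to 0.33 without 1 sample), Egln1 (-0.16 in nodes, -0.034 among separated names), Pfkfb3 (-0.39 to 0.15 without 1 sample) and Eno2 (-0.012 to 0.57). In lymphomas against LPS they were Pfkm (-0.021 without libraries above 1% Gm10800, -0.099 in lung, -0.030 to 0.12 without 1 sample), Pfkfb4 (-0.20 and -0.13 to 0.33) and Ddit4 (-0.27 without libraries above 1% Gm10800, -0.13 in nodes, -0.053 among separated names, -0.055 to 0.43 without 1 sample).

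Over all genes, the 3955 lower after LPS became 2460 without libraries above 1% Gm10800 and 2453 with all 3 groups in 1 fit. In lymphomas against rest the 1921 higher became 1215 in nodes and 1234 among separated names, and the 2308 lower became 3494 without a filter and 1349 without libraries above 1% Gm10800. Against LPS the 679 higher and 1103 lower became 548 and 1915 without a filter, 93 and 340 without libraries above 1% Gm10800, and 273 and 728 in nodes; 1033 were higher among joined and 405 among separated names.

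With genotype as a replicate block, 24 members were higher and 1 lower after LPS, and 3088 genes higher and 4162 lower. Deviations of same-genotype resting and LPS samples correlated by 0.058 (wt), 0.22 (cr), 0.34 (co) and 0.063 (hv), so the samples were not taken as paired; under the block Slc2a1 (0.70, limma adjusted p = 0.00253) and Slc16a1 (1.18, adjusted p = 0.04996) passed and Aldoc (adjusted p = 0.0764) did not. Depth limited Ldhb, Ak4 and Egln3, whose lowest samples lay at a few read pairs.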
